A study of Rattus norvegicus with 9 samples.

Results

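The 232 genes described here are the well-expressed entries of the deposited count table that its type column calls lncRNA (188) or lincRNA (44). Within these types they were chosen by level: a mean of at least 5 CPM (read counts scaled to equal library totals) across 9 libraries of rat dorsal root ganglia. The set was chosen with earlier results of these data known. The table holds 30446 genes, of which 8370 carry one of the 2 types and 2768 of those had 0 counts in every library. Dorsal root ganglia are the clusters of sensory neuron cell bodies, with their satellite glia and Schwann cells, beside the spinal cord. All rats were male Sprague-Dawley, and ganglia of both sides, from the last thoracic levels (T12 on) down to L6, were taken, with 30 days in the labels of every library. The 3 groups hold 3 libraries each, described as biological replicates: naive rats, sham-operated rats, and rats that had received an injury of the spinal cord (SCI). Age, the level and kind of the injury, the sham procedure and whether a library holds 1 animal or a pool are not stated in the labels, so the p-values only speak of the spread seen among these 9 libraries.

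Long noncoding RNAs are long transcripts that have no long open reading frame, and many of them are spliced and polyadenylated like messenger RNA. Some stay in the nucleus and act on splicing or chromatin, some bind microRNAs or proteins, some act on the gene beside them, and some are read mainly as hosts of small RNAs that are cut from their introns or exons. Ganglion neurons carry several of these classes, and axon injury is known to change many of them.

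The label was checked against RefSeq (GRCr8), and it held only in part. By symbol, gene ID or synonym, 66 of the 232 entries matched a RefSeq gene. Of these, 52 are long noncoding RNAs, 13 are protein-coding genes and 1 is a transcribed pseudogene. The protein-coding ones include Ndufb1 and Atp5mpl, small subunits of respiratory complex I and of ATP synthase, and Nkain2, a partner of the sodium pump. No match was found for the other 166, most of which have LOC or AABR names, so their noncoding status rests on the type column alone. The entries are therefore called members below, and the 3 classes are given apart where it matters. Libraries were not stranded, so reads from a member that overlaps another gene, in either orientation, cannot be told from that gene's reads.

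Among the members are the hosts of known small RNAs. H19, the imprinted RNA of the Igf2 domain, carries miR-675, and Ftx, an RNA of the X-inactivation center, carries miR-421 and miR-374. Mature sequences from RefSeq (GRCr8) are shown for these, since the host RNA and the microRNA come from the same transcript. Capitals mark the seed, bases 2 to 8, by which a microRNA pairs with its targets, and no seed is shared between the 6 strands. The mature microRNAs themselves were not analysed here.
rno-miR-675-3p (H19): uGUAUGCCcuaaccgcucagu
rno-miR-675-5p (H19): uGGUGCGGaaagggcccacagu
rno-miR-421-3p (Ftx): aUCAACAGacauuaauuggg
rno-miR-421-5p (Ftx): gGCCUCAUuaaauguuuguug
rno-miR-374-3p (Ftx): cUUAGCACguuguauuauuauu
rno-miR-374-5p (Ftx): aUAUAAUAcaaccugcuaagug

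Library totals ran from 16724878 to 32060538 counts, so 5 CPM stands for 83.6 to 160 counts and 1 CPM for 16.7 to 32.1. The rule is on the mean of 9 libraries, so a member can lie below 5 CPM in single libraries. Counting error is larger there, as for LOC102549180 in sham. All 232 cleared the filter on low counts, as did 16627 genes in all. Just inside the threshold lay LOC102553528 at 5.04 CPM and LOC102550991 at 5.03, and just outside it LOC103693421 and LOC103693099, both at 4.99. A mean of 10 CPM was reached by 143 members and one of 100 CPM by 9. The threshold was passed in naive ganglia by 225 members, in sham by 216 and in SCI by 220. It was passed in all 3 groups by 206 and in 1 group only by 9. From here on CPM use TMM-scaled library sizes, and CPM are not per length, so levels are not compared between genes.

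Members took a larger share of the reads in naive ganglia than after either operation. Their share of all counts was 0.688 to 0.714% in naive libraries, 0.527 to 0.574% in sham and 0.560 to 0.573% in SCI. Summed over members, the level was 6974 ± 156 CPM in naive, 5599 ± 165 in sham and 5638 ± 60.0 in SCI (SD, n = 3 each), so that naive libraries did not overlap either group while sham and SCI lay together. The 166 members with no RefSeq match went from 4747 ± 70.7 CPM in naive to 3620 ± 73.7 in sham and 3616 ± 64.1 in SCI. RefSeq long noncoding RNAs held 1852 ± 78.3, 1523 ± 36.5 and 1568 ± 52.4 CPM. The sum of the 14 members that RefSeq lists as protein-coding or pseudogene went the other way, with 375 ± 11.9, 456 ± 64.0 and 455 ± 6.73 CPM. A sum weighs members by their reads. Counted singly, 13 of the 52 RefSeq long noncoding RNAs were higher and 12 lower in SCI against naive (edgeR adjusted p under 0.05). Their median log2 change was 0.13. All sums include the 9 members that met the rule of 5 CPM in 1 group only. In bulk tissue, fewer cells of a type and less RNA per cell cannot be told apart.

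**Figure D1:**
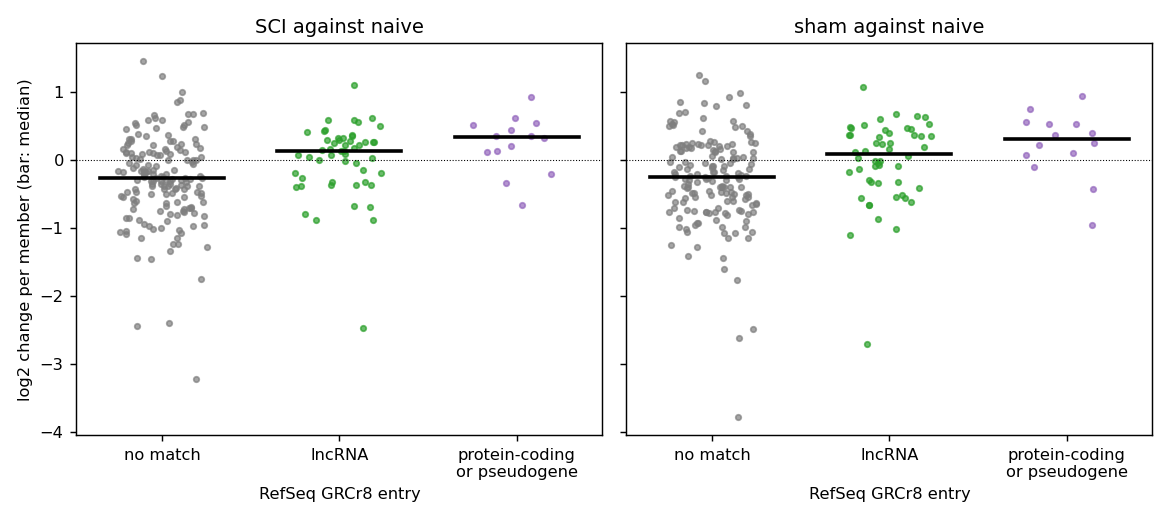
Log2 change of each of the 232 members in SCI against naive and in sham against naive ganglia, by RefSeq class (52 long noncoding RNAs, 14 protein-coding or pseudogene, 166 with no match); each point is 1 member, spread sideways for legibility, and bars mark medians. Medians of members with no match are -0.26 and -0.25, and those of the other classes are above 0.

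The question closest to the injury itself is SCI against sham, since both groups had an operation. No member passed the test there: 0 of 232 at an edgeR adjusted p under 0.05, against a background of 0% of all 16627 genes. The unadjusted edgeR p was under 0.05 for 10 members, against 3.16% of all genes. DESeq2 called 0 members and limma-voom 0. The median log2 change over the members was 0.00, and single members ran from -0.47 to 0.56. Levels of the 2 groups did not overlap for 14 members, 5 higher and 9 lower in SCI, against 6.42% of all genes (3.3% higher and 3.12% lower).

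The 5 members with the smallest p in SCI against sham changed by little and did not pass. AABR07043365.1 had 5.07, 5.41 and 5.70 CPM in sham and 3.89, 4.69 and 3.95 in SCI, a log2 difference of -0.37 (SE 0.13). AABR07043711.1 had 15.8, 21.4 and 14.2 CPM in sham and 12.1, 14.0 and 13.7 in SCI, a log2 difference of -0.37 (SE 0.13). AABR07043510.1 had 4.66, 4.94 and 5.01 CPM in sham and 2.50, 3.80 and 4.41 in SCI, a log2 difference of -0.47 (SE 0.18). In these 3 every SCI library lay below every sham library, by a narrow margin in AABR07043711.1. LOC102549180 had 1.03, 1.01 and 1.14 CPM in sham and 1.58, 1.43 and 1.68 in SCI, a log2 difference of 0.56 (SE 0.21), again without overlap. LOC102556093 had 13.0, 11.4 and 16.4 CPM in sham and 18.0, 17.3 and 14.9 in SCI (0.30, SE 0.12), and here the groups overlapped. All 5 had an edgeR adjusted p of 0.9999.

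The sham libraries differed more among themselves than those of the other groups, with sham 1 and sham 3 furthest apart. A chi-square of their counts per degree of freedom was 40.4 between these and 13.0 and 12.7 for sham 2 with either, against 3.07 to 7.85 within naive and SCI. The coefficient of variation had a median over members of 11.2% in sham, 6.09% in naive and 6.70% in SCI, and 173 members had a larger SD in sham than in SCI. Sham 3 held the highest of the 3 sham levels in 122 members, sham 1 in 54 and sham 2 in 56. Leaving out any other sham or SCI library gave 0 calls among the members. Without sham 3, 2 members passed in SCI against sham, against 0.131% of the 16849 genes then tested. LOC102547101 had 39.6, 52.9 and 96.8 CPM in sham and 68.2, 81.4 and 68.0 in SCI, so sham 3 lay above all SCI libraries and the other sham libraries below them. Its log2 difference was 0.20 (SE 0.23, edgeR adjusted p = 0.9999) with all libraries and 0.65 (SE 0.11, adjusted p = 0.0478) without sham 3. LOC102552725, a RefSeq long noncoding RNA, had 9.25, 9.52 and 15.2 CPM in sham and 14.0, 16.0 and 13.9 in SCI. The same step took it from 0.37 (SE 0.16, adjusted p = 0.9999) to 0.63 (SE 0.10, adjusted p = 0.0385). Both were singled out after their values were seen.

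Against naive ganglia, many members differed in both operated groups, and more were lower than higher. In SCI against naive, 137 of 232 members (59.1%) passed, 46 higher and 91 lower, against a background of 48.5% of all genes, 23.9% higher and 24.6% lower. Protein-coding genes at the same level of at least 5 CPM passed in 56.8% of 11562, 29.4% higher and 27.4% lower. The members' share called at all was thus near that of coding genes, and the shares by direction were 19.8% higher and 39.2% lower. The median log2 change was -0.16 over members and 0.01 over all genes, with members running from -3.22 to 1.45. These counts and medians, and those below by class and type, include the 9 members that met the rule of 5 CPM in 1 group only. Among them LOC102549180, LOC102547322 and Ftx met it in naive, so the rule itself favours their lower calls. No count without the 9 was made.

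In sham against naive, 151 members (65.1%) passed, 51 higher (21.98%) and 100 lower (43.1%), against 50.6% of all genes, 24.7% higher and 25.9% lower. Of the coding genes at 5 CPM or more, 58.9% passed, 30.6% higher and 28.3% lower. The median log2 change was -0.13 over members and 0.00 over all genes. The 9 members that met the rule of 5 CPM in 1 group only are in the counts given here as well. The 2 comparisons share the naive libraries, so the second is not independent of the first. Changes of at least 2-fold that passed numbered 19 lower and 4 higher in SCI, and 19 lower and 3 higher in sham. The lower ones include LOC102549180 and LOC102547322, which met the rule of 5 CPM through the naive libraries alone. The share of all genes with changes of this size was not counted, so these counts are given as a description. Levels did not overlap with naive for 63 members higher and 105 lower in SCI (background 32.2% and 31.9%), and for 52 higher and 103 lower in sham (background 27.5% and 29.2%). The naive libraries stand apart as a group, and a batch that fell together with the naive group cannot be told apart from the operations.

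**Figure D2:**
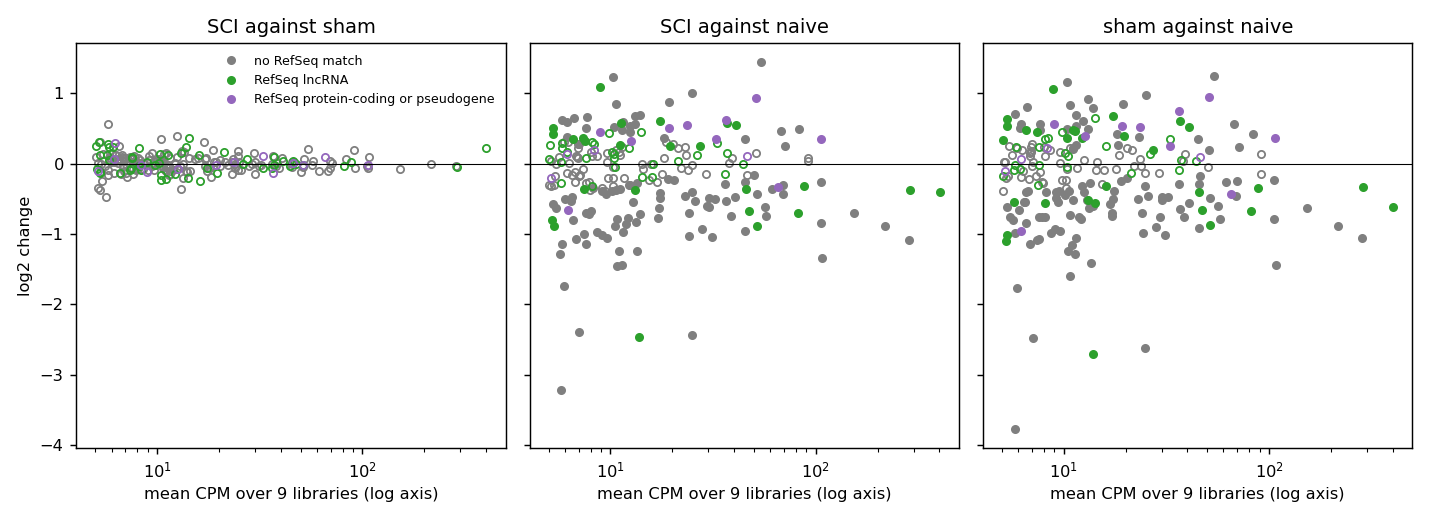
Log2 change of each of the 232 members over its mean CPM in 9 libraries (log axis) in the 3 comparisons, coloured by RefSeq class; filled points passed the edgeR test at an adjusted p under 0.05 and open ones did not. SCI against sham has no filled point and runs from -0.47 to 0.56, while SCI against naive runs from -3.22 to 1.45 with 8 of the 9 members at 100 CPM or more lower.

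The balance of higher and lower calls was not the same in each RefSeq class. Of 52 RefSeq long noncoding RNAs, 13 rose and 12 fell in SCI against naive, with a median log2 change of 0.13. So 48.1% of this class was called, against 48.5% of all genes (23.9% higher, 24.6% lower). Of protein-coding genes at 5 CPM or more, 56.8% were called (29.4% higher, 27.4% lower). In sham against naive 15 rose and 15 fell, with a median of 0.08 (57.7% called). There 50.6% of all genes were called (24.7% higher, 25.9% lower), and 58.9% of those coding genes (30.6% higher, 28.3% lower). Of 166 members with no match, 25 rose and 77 fell in SCI (61.4% called, median -0.26). In sham 28 of them rose and 83 fell (66.9% called, median -0.25). Of the 14 protein-coding or pseudogene entries, 8 rose and 2 fell in each comparison (71.4% called), with medians of 0.33 and 0.31. Lower calls outnumbered higher ones only among the unmatched entries of these 3 classes, and the difference between classes was not tested. By type, 8 lincRNA entries rose and 23 fell of 44 in SCI (70.5% called, median -0.34). Of 188 lncRNA entries 38 rose and 68 fell (56.4% called, median -0.06).

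The 10 members with the most reads held 34.6% of the members' CPM in naive ganglia, 28.1% in sham and 28.3% in SCI. First by reads was Miat, a nuclear RNA of neurons that binds splicing factors. Miat had 431, 561 and 506 CPM in naive, 381, 290 and 305 in sham, and 389, 412 and 337 in SCI. Every operated library lay below every naive one. The log2 change was -0.62 (SE 0.12, edgeR adjusted p = 0.00076) in sham and -0.40 (SE 0.12, adjusted p = 0.0134) in SCI. The SCI call was lost without naive 2 (adjusted p = 0.0734) or without SCI 3 (0.0706), and the direction stayed. Oip5-as1, also called Cyrano, a conserved RNA that directs the decay of miR-7, is entered as LOC100910827. It had 339, 351 and 320 CPM in naive, 255, 290 and 261 in sham and 280, 250 and 247 in SCI. It fell by 0.33 in sham (log2, SE 0.08, adjusted p = 0.00281) and by 0.38 in SCI (SE 0.08, adjusted p = 0.00111), with no overlap with naive.

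Most of the others with many reads have no RefSeq match. LOC103691479 had 434, 445 and 431 CPM in naive, 216, 217 and 198 in sham and 203, 205 and 209 in SCI, a log2 change of -1.08 (SE 0.06, edgeR adjusted p = 1.6e-07) in SCI. LOC102553639 had 173, 184 and 193 CPM in naive, 70.2, 62.0 and 69.8 in sham and 69.0, 75.6 and 72.4 in SCI, a log2 change of -1.34 (SE 0.07, adjusted p = 6.98e-08). In both the operated libraries lay tightly together, far below naive. LOC102556753, AABR07017145.1 and LOC102546820 fell in SCI against naive by 0.88, 0.85 and 0.70 on the log2 scale. LOC100911029 fell by 0.26 in SCI and by 0.23 in sham, where the call was lost without naive 1 (adjusted p = 0.0624). LOC102554201 had 85.9, 90.5 and 85.1 CPM in naive and 81.5, 96.2 and 98.9 in SCI and did not pass (0.08, adjusted p = 0.398). Atp5mpl, entered as LOC100912557, rose by 0.35 (adjusted p = 0.00356), the 1 riser of the 10.

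**Figure D3:**
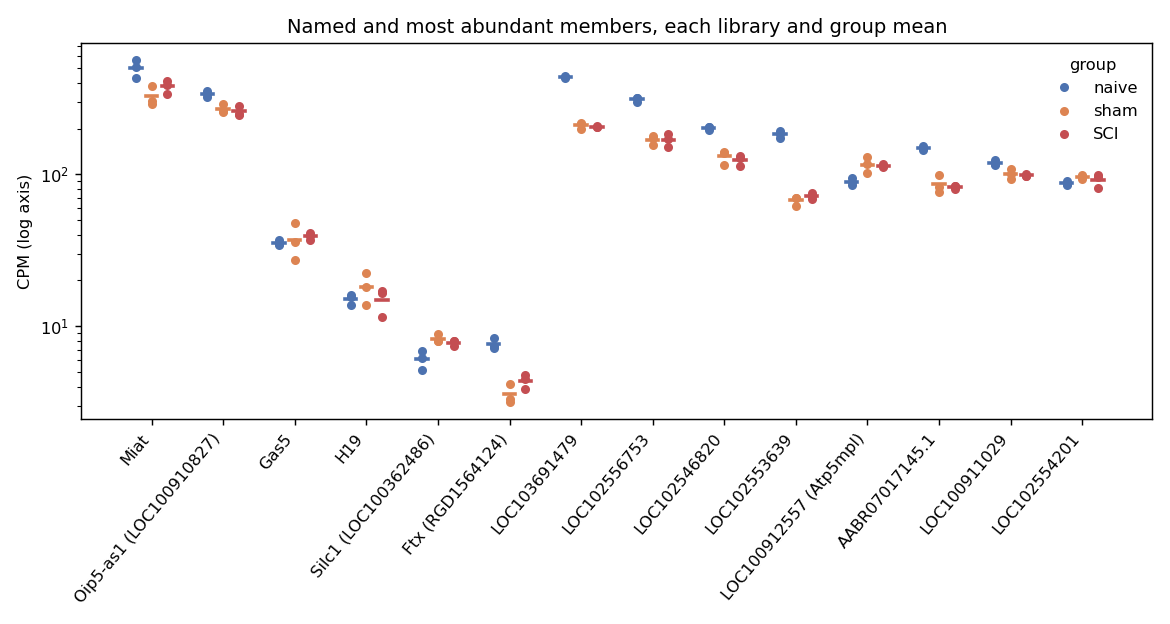
CPM on TMM-scaled library sizes (log axis) of the 10 members with the highest mean and of Gas5, H19, Silc1 and Ftx, by group; each point is 1 library and lines mark group means. Of the 10, the naive points lie above the operated groups for 8, below them for Atp5mpl and among them for LOC102554201.

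The 4 members furthest from naive in SCI were all lower. AABR07059380.1 had 54.2, 58.4 and 52.9 CPM in naive, 7.78, 9.81 and 9.57 in sham and 9.70, 9.98 and 11.001 in SCI, 5.41-fold lower in SCI (log2 -2.43, SE 0.09, edgeR adjusted p = 1.09e-08). LOC102549180 had 12.7, 17.1 and 14.0 CPM in naive, 1.03, 1.01 and 1.14 in sham and 1.58, 1.43 and 1.68 in SCI. That is 9.30-fold lower in SCI (log2 -3.22) and 13.7-fold lower in sham (log2 -3.78). LOC102547322 went from 14.1, 16.7 and 15.3 CPM in naive to 2.24, 2.44 and 3.67 in sham and 2.69, 3.41 and 2.73 in SCI, 5.28-fold lower in SCI. Both LOC102549180 and LOC102547322 met the rule of 5 CPM through the naive libraries alone, so they had to differ, and their changes are given as a description. The remaining one, LOC102553493, is described next. Among the others with a small p, LOC102551338 was 2.07-fold lower (log2 -1.05).

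A pair of members that fell were set beside their neighbouring coding genes, which did not all move the same way. LOC102553493, a RefSeq long noncoding RNA, had 27.0, 33.6 and 32.4 CPM in naive, 4.26, 4.82 and 5.26 in sham and 6.21, 5.78 and 4.68 in SCI (log2 -2.47, SE 0.12, edgeR adjusted p = 3.85e-08). It overlaps Xkr6, of the XK family of membrane proteins, which had 4.23 ± 1.09 CPM in naive, 0.895 ± 0.162 in sham and 1.05 ± 0.249 in SCI and fell by 2.04 on the log2 scale (SE 0.23). Reads of overlapping genes are not separable here. Pinx1, the gene on the other side and an inhibitor of telomerase, rose: it had 6.09 ± 0.512 CPM in naive and 8.54 ± 0.937 in SCI (log2 0.48, SE 0.12, adjusted p = 0.00421). LOC102553736 had 71.0, 74.9 and 75.9 CPM in naive, 39.0, 40.3 and 42.4 in sham and 39.4, 41.3 and 39.9 in SCI (log2 -0.88, SE 0.06). Its neighbour Marchf6, entered as March6, a ubiquitin ligase of the endoplasmic reticulum, fell by 0.92 (SE 0.12) in the same comparison. The gene on its other side, Ropn1l, which starts 425 bases away and encodes a protein of sperm flagella, did not pass, at 1.09 ± 0.0722 CPM in naive and 1.43 ± 0.336 in SCI (log2 0.37, SE 0.21, adjusted p = 0.153).

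**Figure D4:**
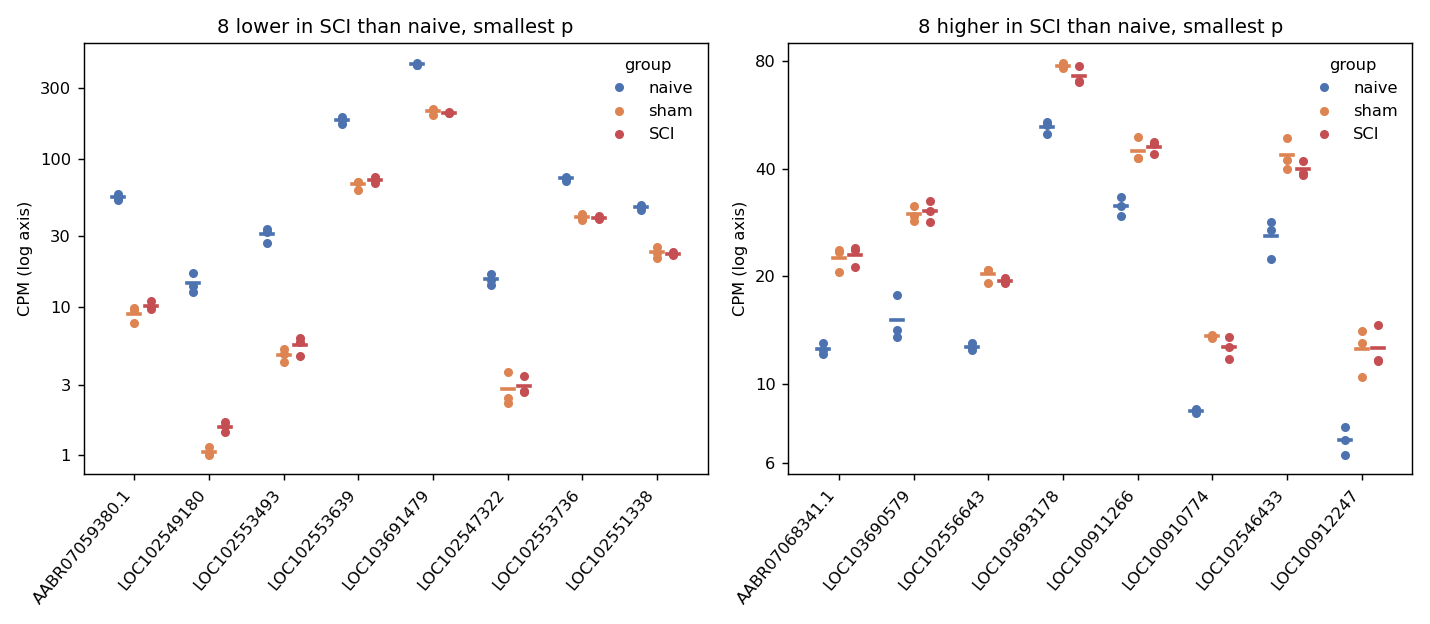
CPM (log axis) of the 8 lower and the 8 higher called members with the smallest p in SCI against naive; each point is 1 library, lines mark group means. Sham and SCI points lie on the same side of naive in all 16.

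The named members that rose, in order of p, began with AABR07068341.1. AABR07068341.1 had 12.1, 13.0 and 12.4 CPM in naive, 23.4, 23.7 and 20.5 in sham and 23.7, 24.0 and 21.3 in SCI, 1.84-fold higher in SCI (log2 0.88, SE 0.08, edgeR adjusted p = 4.95e-06). LOC103690579 had 13.5, 17.7 and 14.1 CPM in naive and 28.3, 30.4 and 32.4 in SCI, a log2 change of 1.003 (SE 0.10). LOC102556643, a RefSeq long noncoding RNA, had 12.7, 13.0 and 12.5 CPM in naive, 19.2, 20.8 and 20.9 in sham and 19.7, 19.2 and 19.2 in SCI (log2 0.61, SE 0.07). None of the 3 overlapped with naive in either operated group. LOC100912247, LOC102546433 (the pseudogene Brcc3-ps7), LOC100910774, LOC100911266 and LOC103693178 rose by 0.85, 0.62, 0.59, 0.55 and 0.47. LOC102547101 rose furthest of all members, from 24.3, 27.0 and 28.2 CPM in naive to 68.2, 81.4 and 68.0 in SCI, 2.73-fold (log2 1.45, SE 0.23, adjusted p = 0.000237). AABR07043711.1 had 8.97, 8.9999 and 8.93 CPM in naive against 15.8, 21.4 and 14.2 in sham, a log2 rise of 0.92 (SE 0.13).

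Of 103 names of known noncoding RNAs on the lists, 18 are in the table, 4 of them typed protein_coding, and 5 are members: Miat, Oip5-as1, Gas5, H19 and Ftx. The other names were not analysed here. Gas5, the host of box C/D small nucleolar RNAs whose spliced RNA is degraded during translation, had 34.0, 34.96 and 36.8 CPM in naive, 27.2, 35.6 and 47.6 in sham and 39.3, 41.0 and 37.0 in SCI. Its SCI libraries lay above all naive ones, yet the log2 difference of 0.15 (SE 0.14) did not pass (edgeR adjusted p = 0.409). In sham against naive it was 0.06 (adjusted p = 0.767), and -0.17 without sham 3, the library that held the highest value. H19 had 15.6, 13.8 and 16.1 CPM in naive, 13.7, 18.1 and 22.5 in sham and 16.96, 11.5 and 16.5 in SCI, and its groups overlapped. It differed from naive by -0.01 in SCI (SE 0.17, adjusted p = 0.974) and by 0.25 in sham (SE 0.17, adjusted p = 0.243). Without sham 1, H19 in sham passed at 0.42 (adjusted p = 0.0248).

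Ftx, whose microRNAs are shown above, fell in both operated groups. It is entered as RGD1564124 and had 7.38, 8.34 and 7.22 CPM in naive, 3.19, 3.33 and 4.16 in sham and 4.51, 4.79 and 3.86 in SCI. The log2 change was -0.80 (SE 0.13, edgeR adjusted p = 0.000303) in SCI and -1.11 (SE 0.14, adjusted p = 2.99e-05) in sham. No operated library reached the lowest naive one. Every operated library lay below 5 CPM, so Ftx met the rule of 5 CPM through the naive libraries alone. Its fall is therefore given as a description. Silc1, entered as LOC100362486, is known in mouse sensory neurons as an RNA that acts on the nearby transcription factor gene Sox11 after nerve injury. It was singled out after its values were seen. Silc1 had 6.19, 6.83 and 5.17 CPM in naive, 8.85, 8.03 and 7.98 in sham and 7.97, 7.41 and 8.001 in SCI, without overlap with naive. It rose by 0.36 in SCI (SE 0.12, adjusted p = 0.0229) and by 0.46 in sham (SE 0.12, adjusted p = 0.0068). The SCI call was lost without naive 1 (adjusted p = 0.0514), naive 3 (0.127), SCI 1 (0.069) or SCI 3 (0.0683). Sox11 had 2.10 ± 0.321 CPM in naive, 2.89 ± 0.487 in sham and 3.25 ± 0.214 in SCI, a log2 change of 0.64 (SE 0.17, adjusted p = 0.00777) in SCI.

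Many long noncoding RNAs start beside a coding gene and run away from it, from a shared promoter region. RefSeq gave a promoter window for 57 members, and 16 of these start within 1000 bases of a protein-coding gene on the other strand. Among the 16 are Ndufb1, LOC102556092 (Zfp664) and LOC102547703, which RefSeq lists as protein-coding or pseudogene. The counts of pairs below include them. In 15 pairs both genes were tested in SCI against naive. The sign of change was the same in 8 of them, 9 members and 7 partners passed, and both genes passed in 4 pairs, in 3 of them in opposite directions. The counts of members and of partners that passed are to be read against the 48.5% of all genes called in that comparison. No background was computed for a shared sign or for both genes of a pair passing, and 15 pairs are few. The pairs below were singled out after their values were seen. Their promoter windows, and that of Gas5, are given as the 250 bases before to the 50 after the start (GRCr8, RefSeq), with capitals at matches to the motifs searched.
Gas5, chr13:75836713-75837012, + strand: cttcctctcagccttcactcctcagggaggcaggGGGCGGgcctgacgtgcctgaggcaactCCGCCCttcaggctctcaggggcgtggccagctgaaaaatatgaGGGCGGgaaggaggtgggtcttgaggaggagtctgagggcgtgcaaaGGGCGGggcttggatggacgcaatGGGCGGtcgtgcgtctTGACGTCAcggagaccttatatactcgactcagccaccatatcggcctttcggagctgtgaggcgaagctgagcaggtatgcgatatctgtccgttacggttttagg
LOC100911177, chr3:176211080-176211379, + strand: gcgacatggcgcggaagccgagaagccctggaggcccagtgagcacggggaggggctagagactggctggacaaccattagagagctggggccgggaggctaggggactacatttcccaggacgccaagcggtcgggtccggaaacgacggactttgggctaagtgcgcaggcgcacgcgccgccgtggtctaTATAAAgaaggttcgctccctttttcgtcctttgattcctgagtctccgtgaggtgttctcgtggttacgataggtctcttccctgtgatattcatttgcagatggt
LOC100910945, chr20:25781359-25781658, - strand: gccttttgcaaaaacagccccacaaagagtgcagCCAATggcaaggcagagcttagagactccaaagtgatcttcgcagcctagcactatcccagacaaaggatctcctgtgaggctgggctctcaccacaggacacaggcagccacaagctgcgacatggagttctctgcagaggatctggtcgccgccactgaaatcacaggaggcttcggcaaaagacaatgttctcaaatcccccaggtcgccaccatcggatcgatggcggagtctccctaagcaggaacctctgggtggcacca
LOC102548080, chr4:147376806-147377105, + strand: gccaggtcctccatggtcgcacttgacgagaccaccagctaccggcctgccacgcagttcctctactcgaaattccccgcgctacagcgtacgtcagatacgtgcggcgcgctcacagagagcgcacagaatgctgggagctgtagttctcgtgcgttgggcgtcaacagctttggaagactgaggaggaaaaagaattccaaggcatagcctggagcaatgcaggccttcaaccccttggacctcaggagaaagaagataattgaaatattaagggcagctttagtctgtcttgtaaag

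The motifs, searched on both strands, were the GC box GGGCGG, the CCAAT box, TATAAA, the cAMP response element TGACGTCA, the ETS site CCGGAAG and the sites of NRF1 and YY1. Among the 45 windows of members with a long noncoding entry, 44.4% held a GC box, against 34.9% of 27457 windows of all genes. CCAAT was in 37.8% against 37.7%, TATAAA in 11.1% against 14.3%, and CCGGAAG in 6.67% against 9.22%. TGACGTCA was in 2.22%, the Gas5 window alone, against 1.91%. NRF1 and YY1 sites were in 0% against 0.932% and 0.798%. Median GC content was 55.7% against 52.3%. The Gas5 window has 6 matches, 5 of them GC boxes, LOC100911177 has 1 TATAAA, LOC100910945 has 1 CCAAT, and LOC102548080 has 0. These are matches of letters, and binding was not measured.

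In the pairs of LOC100911177, LOC100910945 and Ndufb1, the member rose while its partner fell. LOC100911177 had 26.5, 27.8 and 28.4 CPM in naive, 34.9, 40.6 and 50.5 in sham and 40.7, 41.0 and 42.1 in SCI, a log2 rise of 0.58 (SE 0.11, edgeR adjusted p = 0.000554). Its partner Znfx1, an RNA helicase of antiviral defence, starts 518 bases away and fell from 104, 103 and 95.4 CPM to 79.9, 84.3 and 79.96 in SCI (log2 -0.31, SE 0.06, adjusted p = 0.00147). LOC100910945 had 5.25, 5.10 and 4.82 CPM in naive, 7.45, 11.7 and 13.0 in sham and 9.89, 10.6 and 12.0 in SCI, a rise of 1.10 (SE 0.17, adjusted p = 0.000204). Its partner Tet1, an enzyme that oxidises methylated cytosine, was low, at 1.92, 2.23 and 2.44 CPM in naive and 1.79, 1.19 and 1.41 in SCI. Tet1 changed by -0.56 (SE 0.21, adjusted p = 0.0437). That call was lost without naive 2 (adjusted p = 0.0967), naive 3 (0.13), SCI 2 (0.156) or SCI 3 (0.111), and with DESeq2 (0.083). Another Tet1 start overlaps the member. Ndufb1, protein-coding in RefSeq, had 28.3, 35.7 and 31.2 CPM in naive and 62.7, 61.9 and 57.0 in SCI, a rise of 0.93 (SE 0.17, adjusted p = 0.000559). Its partner Cpsf2, a subunit of the complex that cleaves messenger RNA at its end, fell from 75.2, 76.8 and 71.2 CPM to 49.4, 46.4 and 46.4 (log2 -0.65, SE 0.07, adjusted p = 1.62e-05). Cpsf2 overlaps Ndufb1, so reads of this pair are not separable either. The genes on the other side were Slc25a16 for LOC100910945 (log2 -0.33, adjusted p = 0.00271) and Atxn3 for Ndufb1 (-0.55, adjusted p = 0.00283).

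In the pair of LOC102548080 and Rad18, a ubiquitin ligase of DNA damage tolerance, both genes fell. LOC102548080 had 104, 116 and 107 CPM in naive, 73.3, 67.2 and 65.2 in sham and 67.0, 68.4 and 66.2 in SCI (log2 -0.70, SE 0.07, edgeR adjusted p = 4.1e-06). Rad18 had 11.3, 11.4 and 11.4 CPM in naive and 7.66, 7.81 and 8.82 in SCI (log2 -0.49, SE 0.09, adjusted p = 0.000861). LOC102548080 also overlaps Srgap3, a protein of the Slit and Robo pathway, whose reads cannot be told from its own. Srgap3 had 87.5 ± 6.57 CPM in naive and 69.96 ± 6.06 in SCI (log2 -0.32, SE 0.10, adjusted p = 0.0148), a call lost without naive 2 (adjusted p = 0.0767) or without SCI 3 (0.079). Gas5 did not pass, while its partner Zbtb37, at 1.001 ± 0.269 CPM in naive and 0.550 ± 0.134 in SCI, did (log2 -0.82, SE 0.29, adjusted p = 0.0332). The Zbtb37 call was lost in 5 of the 6 runs with 1 library left out and with DESeq2 (adjusted p = 0.0848).

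**Figure D5:**
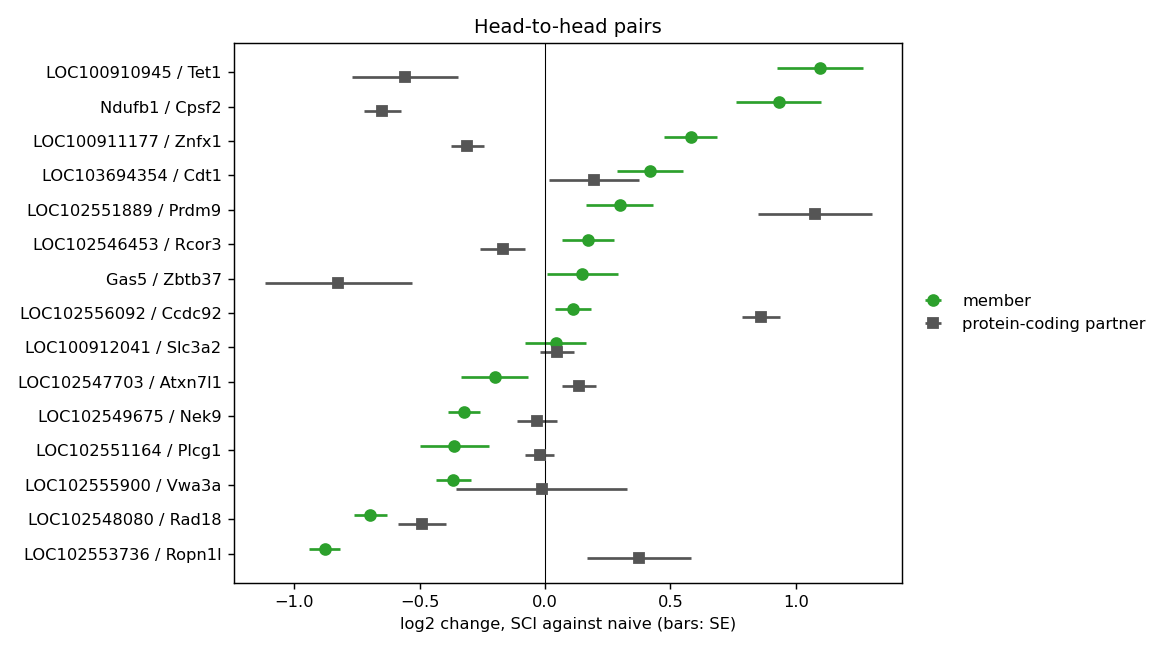
Log2 change in SCI against naive (x axis, bars are the SE of the fit) of 15 members (green circles) and of the protein-coding gene that starts within 1000 bases on the other strand (grey squares), 1 pair a line. In the pairs of LOC100910945, Ndufb1 and LOC100911177 the circle lies right of 0, at 1.10, 0.93 and 0.58, and the square left of it.

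Proteins that bind, process or degrade such RNAs were counted from lists, to be read against the 48.5% of all genes called in SCI against naive (23.9% higher, 24.6% lower) and the 50.6% called in sham (24.7% higher, 25.9% lower). Of 17 tested partner proteins of paraspeckles and of Malat1, the nuclear bodies and RNA that hold splicing factors, 2 rose and 8 fell in SCI against naive, and 1 rose and 8 fell in sham. Son, a scaffold of nuclear speckles, had 345, 339 and 330 CPM in naive and 161, 147 and 138 in SCI (log2 -1.18, SE 0.07, edgeR adjusted p = 2.15e-07). Cpsf6 and Matr3 fell by 0.93 and 0.65. Of 17 factors of nonsense-mediated decay, the pathway that degrades Gas5, 5 rose and 5 fell in each comparison. Smg1, the kinase of that pathway, changed by -1.03 and Upf2 by -0.50, and Rbm8a, of the exon junction complex, by 0.54. Of 13 small nucleolar RNA proteins, 5 rose and 2 fell in SCI and 6 rose and 2 fell in sham. Ruvbl2 and Nhp2 rose by 0.56 and 0.62, and Naf1 fell by 0.71. The shares called at all were near that of all genes in the 3 lists. In SCI against sham none of them had a call.

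Some cell type markers differed from naive in the operated groups, where 48.5% of all genes were called in SCI and 50.6% in sham. Of 10 Schwann cell markers, 8 fell and 0 rose in each operated group, and their summed level was 30236 to 31974 CPM in naive, 17618 to 21997 in sham and 19082 to 23250 in SCI. Of 10 macrophage markers 6 rose and 1 fell in each. Satellite glia markers summed to 4865 to 4904 CPM in naive, 7447 to 9704 in sham and 7423 to 8558 in SCI, with 3 of 9 higher and 2 lower in each. Sensory neuron markers summed to 33424 to 34936 CPM in naive, 32898 to 48008 in sham and 36706 to 37332 in SCI, and of 16 tested 3 rose and 2 fell in SCI and 5 rose and 2 fell in sham. Skeletal muscle markers summed to 314 to 356 CPM in naive, 502 to 843 in sham and 583 to 599 in SCI, with 2 of 12 higher and 1 lower in SCI and 9 higher in sham. Of 7 red blood cell markers tested, 1 fell in SCI and 6 fell in sham, and 0 rose in either. Fibroblast and vessel markers summed to 2788 to 3182 CPM in naive, 1604 to 2709 in sham and 1809 to 2231 in SCI. Of 11 tested, 1 rose and 4 fell in SCI, and 3 rose and 4 fell in sham. Of 4 spinal cord glia markers tested, 1 fell in SCI and 2 fell in sham. No marker on these lists was at 0 counts. Their part in the members' differences was not tested.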

How the data were processed

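Total RNA for 9 libraries (3 naive, 3 sham, 3 SCI) came from RNeasy Mini Kit extractions and was made into paired-end libraries with the TruSeq V2 kit, per the labels' protocols. That kit does not mark strand. Per the submitters' processing notes, the tools included TopHat2 as well as HTSeq, Trimmomatic, FastQC and DESeq2. Neither annotation nor build is given in the sources used here. Raw read counts per gene, whole numbers that are not normalized, were deposited by the authors for 30446 genes.

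Groups follow the treatment labels. Counts were tested with edgeR's quasi-likelihood test (version 4.0.16, R 4.3.3) with TMM scaling, the default filter by group, 1 fit to all 9 libraries with 6 residual degrees of freedom, and p-values adjusted by Benjamini-Hochberg over the 16627 genes tested. Calls are at an adjusted p under 0.05, and log2 changes and SE come from that fit. The members and lists were chosen with earlier results of these data known. Named members are the 10 with the highest mean CPM, up to 8 higher and 8 lower calls with the smallest p per comparison (or, with fewer than 3 calls, the 5 smallest p), members on the lists of known noncoding RNAs, and those at the threshold. Others were singled out after their values were seen.

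On simulated counts of 16627 genes made for SCI against sham, the test recovered 16.7% of 1.25-fold changes, 63.3% at 1.5-fold, 81.3% at 2-fold and 95.3% at 4-fold. The simulation gave the 3 groups the same spread, without the larger spread seen in sham. Its changed genes were drawn from all genes tested, not from the members. RefSeq GRCr8 tables gave names, neighbours and sequences, and the first listed promoter window of a gene was used. Alternatives were RLE and upper-quartile scaling, other filters, 2 groups only, leaving out each library, a block on the replicate number, DESeq2 1.42.0, limma-voom (limma 3.58.1), an adjusted p under 0.1 and a minimum of 10 CPM. After seeing the data, 2 sets of members were added: without the 14 entries that RefSeq lists as protein-coding or pseudogene, and with a RefSeq long noncoding entry only. The values of 1 neighbouring gene are not reported here.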

Additional observations from a re-analysis of the deposited data

How the results depend on the processing

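The counts of members that passed were 0 for SCI against sham, 137 for SCI against naive and 151 for sham against naive. With each library left out in turn they ran from 0 to 2, from 121 to 124 and from 130 to 152, and the 2 arose without sham 3. Among RefSeq long noncoding entries only, a set of 52 chosen after seeing the data, 25 passed in SCI against naive and 30 in sham against naive. The labels do not say whether replicate numbers pair the samples, and the main fit did not use them. Same-numbered libraries deviated from their group means with correlations of -0.0946 to 0.124 over 9 pairs. Such weak correlations cannot show whether the samples were paired. With the replicate number as a block the counts were 0, 134 and 148. DESeq2 gave 134 and 146 in the naive comparisons, and a fit of only the 2 groups compared gave 164 and 142. H19 in SCI against naive, near 0 and never called, was 0.0094 with upper-quartile scaling and ran from -0.11 to 0.15 with a library left out. Gas5 in sham against naive ran from -0.17 to 0.24. The alternatives were counted over all named values, H19 and Gas5 included, and over some members and genes not described above. Of these, 1949 kept direction and call, 54 lost a call, 10 gained one and 5 reversed, the last all of H19 and Gas5. In the simulated counts, a log2 difference under that of a 1.5-fold change was often not detected with 3 libraries a group. CPM scaling shows relative levels only, and low partner genes such as Tet1 rest on few counts.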
